A study of Mus musculus with 15 samples.

Results

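The genes described here are 5 globin genes and 4 genes of the red cell programme: the embryonic beta-like globins Hbb-y and Hbb-bh1, the embryonic alpha-like globin Hba-x, the adult-type globins Hba-a1 and Hbb-b1, the transcription factor genes Gata1 and Klf1, the erythropoietin receptor gene Epor and the heme synthesis gene Alas2. They were taken by name from the deposited table, and are 9 of the 28876 genes it lists. All 9 reached 0.5 RPM (reads of a gene per megaread assigned to genes) in at least 1 library and were tested, as were 18553 genes in all. The RNA came from C57BL/6 mouse embryos at E9.5 and E10.5, from the aorta-gonad-mesonephros (AGM) region, in which hematopoietic stem cells first arise. The dorsal (AoD) and ventral (AoV) parts of the dorsal aorta with its surrounding tissue were taken at both stages, and the urogenital ridges (UGR) at E10.5, which gives 3 libraries for each of E9 AoD and E9 AoV, and for each of E10 AoD, E10 AoV and the ridges (E10 UGR). The labels name no transgene, mutation or treatment in any group. Each library was made from tissue pooled from 15 to 34 embryos, in 3 separate experiments, so that the spread between libraries is a spread between pools. The methods name no removal of blood cells. Depth, read from the steps between low values, was between 33.8 and 48.5 megareads assigned to genes per library.

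Hemoglobin joins alpha-like and beta-like globin chains around heme. The first red cells of the mouse embryo, the primitive erythroid cells, form in the yolk sac and circulate with their nuclei, and they use the embryonic chains zeta (from Hba-x), epsilon-y (Hbb-y) and beta-h1 (Hbb-bh1) before adult chains take over. Definitive red cells, made later by the fetal liver, use adult chains. GATA1 and KLF1 are the DNA-binding factors that switch on globin, heme and membrane genes in red cells. EPOR passes on the survival signal of erythropoietin, and ALAS2 performs the rate-limiting step of heme synthesis in red cells.

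The beta-like genes lie together on chromosome 7 and the alpha-like genes on chromosome 11. In NCBIM37 coordinates (mm9, the build the authors aligned to), Hbb-b1 spans chr7:110961038-110962510, Hbb-bh1 chr7:110990150-110991678 and Hbb-y chr7:111000259-111001754, all on the minus strand. Hba-x spans chr11:32176400-32178116 and Hba-a1 chr11:32183511-32184465 on the plus strand. Gata1 (chrX:7536386-7555197, minus strand), Alas2 (chrX:146981918-147005181, plus strand), Klf1 (chr8:87425827-87429194, plus strand) and Epor (chr9:21763343-21768020, minus strand) lie elsewhere. The row named Hbb-b1 in the deposited table has the identifier ENSMUSG00000073940, which the GENCODE annotation of this build names Hbb-b2, and the deposited Hbb-b2 (ENSMUSG00000052305) is named Hbb-b1 there. The deposited names are used throughout.

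How far the globin genes can be told apart by short reads is seen in their sequence. The first 90 coding bases of each beta-like gene are given here on the coding strand, with a capital wherever the base differs from that of Hbb-b1, aligned from the start codon without gaps. They lie in the first coding exon, at chr7:110962294-110962383 for Hbb-b1, chr7:110976300-110976389 for Hbb-b2, chr7:110991535-110991624 for Hbb-bh1 and chr7:111001577-111001666 for Hbb-y.
Hbb-b1: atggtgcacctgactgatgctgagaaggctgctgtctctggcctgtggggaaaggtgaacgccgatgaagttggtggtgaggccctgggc
Hbb-b2: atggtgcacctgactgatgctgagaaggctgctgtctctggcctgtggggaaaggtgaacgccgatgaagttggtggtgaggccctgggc
Hbb-bh1: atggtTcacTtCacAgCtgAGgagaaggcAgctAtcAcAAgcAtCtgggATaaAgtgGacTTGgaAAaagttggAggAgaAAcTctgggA
Hbb-y: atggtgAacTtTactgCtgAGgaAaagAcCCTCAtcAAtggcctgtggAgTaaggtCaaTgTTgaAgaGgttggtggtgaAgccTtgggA
Hbb-bh1 differs from Hbb-b1 at 29 of these bases and Hbb-y at 26, whereas Hbb-b2 carries the same 90 bases. The alpha-like genes are shown in the same way against Hba-a1, at chr11:32183707-32183796 for Hba-a1, chr11:32196524-32196613 for Hba-a2 and chr11:32176664-32176753 for Hba-x.
Hba-a1: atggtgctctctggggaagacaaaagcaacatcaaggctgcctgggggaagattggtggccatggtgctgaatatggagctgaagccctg
Hba-a2: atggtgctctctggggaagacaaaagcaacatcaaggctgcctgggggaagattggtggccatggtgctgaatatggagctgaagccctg
Hba-x: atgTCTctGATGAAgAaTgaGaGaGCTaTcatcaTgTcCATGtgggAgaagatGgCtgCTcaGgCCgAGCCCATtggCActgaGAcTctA
Hba-x differs from Hba-a1 at 44 of the 90 bases and Hba-a2 at none. Over the whole coding sequence of 444 bases, Hbb-b1 and Hbb-b2 differ at 1 base (99.8% identity), while Hbb-b1 shares 74.1% of its bases with Hbb-y and 73.9% with Hbb-bh1, and Hbb-bh1 shares 76.4% with Hbb-y. Over the 429 coding bases of the alpha-like genes, Hba-a1 and Hba-a2 differ at 1 base and Hba-a1 shares 62.0% with Hba-x. Of all stretches of 50 bases, the read length, in the transcripts of Hbb-b1, 58.3% (381 of 654) occur letter for letter in Hbb-b2, and of those of Hba-a1, 68.4% (478 of 699) occur in Hba-a2. None of the 50-base stretches of the other 7 genes is found in another protein-coding gene. The authors shared out a read with several matching genes by the number of unique reads each gene had, so the split of Hbb-b1 from Hbb-b2 and of Hba-a1 from Hba-a2 is uncertain, while the embryonic globins are counted from reads of their own.

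The embryonic globins were the most abundant of the 9 genes. Hbb-y was measured at 3410, 1500 and 2060 RPM in the 3 E9 AoD libraries, at 5630, 1200 and 3360 RPM in E9 AoV, at 3880, 5080 and 5180 RPM in E10 AoD, at 2390, 4760 and 3810 RPM in E10 AoV and at 2440, 3850 and 3440 RPM in E10 UGR, each in the order of replicates 1 to 3. The widest spread lay within E9 AoV, which held both the highest and the lowest of the 15 libraries, and E10 AoD lay wholly above E9 AoD. The ranges of E10 AoD and E9 AoD lay apart for 60.7% of all tested genes. Hbb-bh1 was at 2250, 1030 and 1400 RPM in E9 AoD, 3630, 794 and 2220 RPM in E9 AoV, then 2000, 2490 and 2770 RPM in E10 AoD, 1260, 2380 and 2010 RPM in E10 AoV and 1260, 1950 and 1850 RPM in E10 UGR. Apart from E10 AoD and E10 UGR, whose ranges lay apart for 50.9% of all tested genes, the ranges of every pair of groups overlapped for Hbb-bh1. Hba-x lay between 671 and 3270 RPM, with means of 1417 ± 606 RPM in the dorsal and 1970.3 ± 1299.5 RPM in the ventral aorta at E9.5, and of 2467 ± 310 RPM in the dorsal aorta, 1913 ± 548 RPM in the ventral aorta and 1703 ± 397 RPM in the ridges at E10.5 (SD, n = 3 each).

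Each of the adult-type globins was lower as a single row. Hba-a1 shares its reads with its near copy Hba-a2, which had group means between 538 and 1063 RPM, so Hba-a1 alone understates adult alpha RNA. Hba-a1, which encodes an adult alpha chain that primitive cells also make, lay between 275 RPM in replicate 2 and 1390 RPM in replicate 1 of E9 AoV, with means of 583 ± 260 RPM in the dorsal and 815 ± 558 RPM in the ventral aorta at E9.5, and of 1151 ± 148, 902 ± 279 and 797 ± 191 RPM in the dorsal aorta, the ventral aorta and the ridges at E10.5 (SD, n = 3 each). Hbb-b1 was the lowest of the 5 globins by a wide margin. It was at 31.8, 13.9 and 20.3 RPM in E9 AoD, 49.8, 10.2 and 29.8 RPM in E9 AoV, then 95.5, 138 and 115 RPM in E10 AoD, 59.7, 123 and 84.7 RPM in E10 AoV and 57.4, 102 and 76.3 RPM in E10 UGR. Every E10.5 library was above every E9.5 library for Hbb-b1, and the 3 groups of E10.5 overlapped with each other, as did both groups of E9.5. Over all tested genes, the ranges of the stages lay apart for 60.7% in the dorsal and for 55.0% in the ventral aorta, each with 3 libraries against 3. The share for all E10.5 against all E9.5 libraries was not counted.

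The regulators were found at a few RPM. Gata1 was at 8.90, 4.16 and 5.90 RPM in E9 AoD, 16.0, 3.08 and 10.3 RPM in E9 AoV, then 8.17, 11.0 and 11.6 RPM in E10 AoD, 5.32, 9.31 and 9.15 RPM in E10 AoV and 5.33, 8.39 and 8.90 RPM in E10 UGR. The ranges of every pair of groups overlapped for Gata1. Klf1 lay between 3.83 and 17.0 RPM and Epor between 5.29 and 19.7 RPM, in both genes with the extremes in E9 AoV. Alas2 was higher, with 79.3, 34.5 and 48.5 RPM in E9 AoD, 129, 26.0 and 83.1 RPM in E9 AoV, then 74.9, 104 and 98.1 RPM in E10 AoD, 47.3, 97.1 and 72.0 RPM in E10 AoV and 47.8, 77.2 and 64.4 RPM in E10 UGR.

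**Figure D1:**
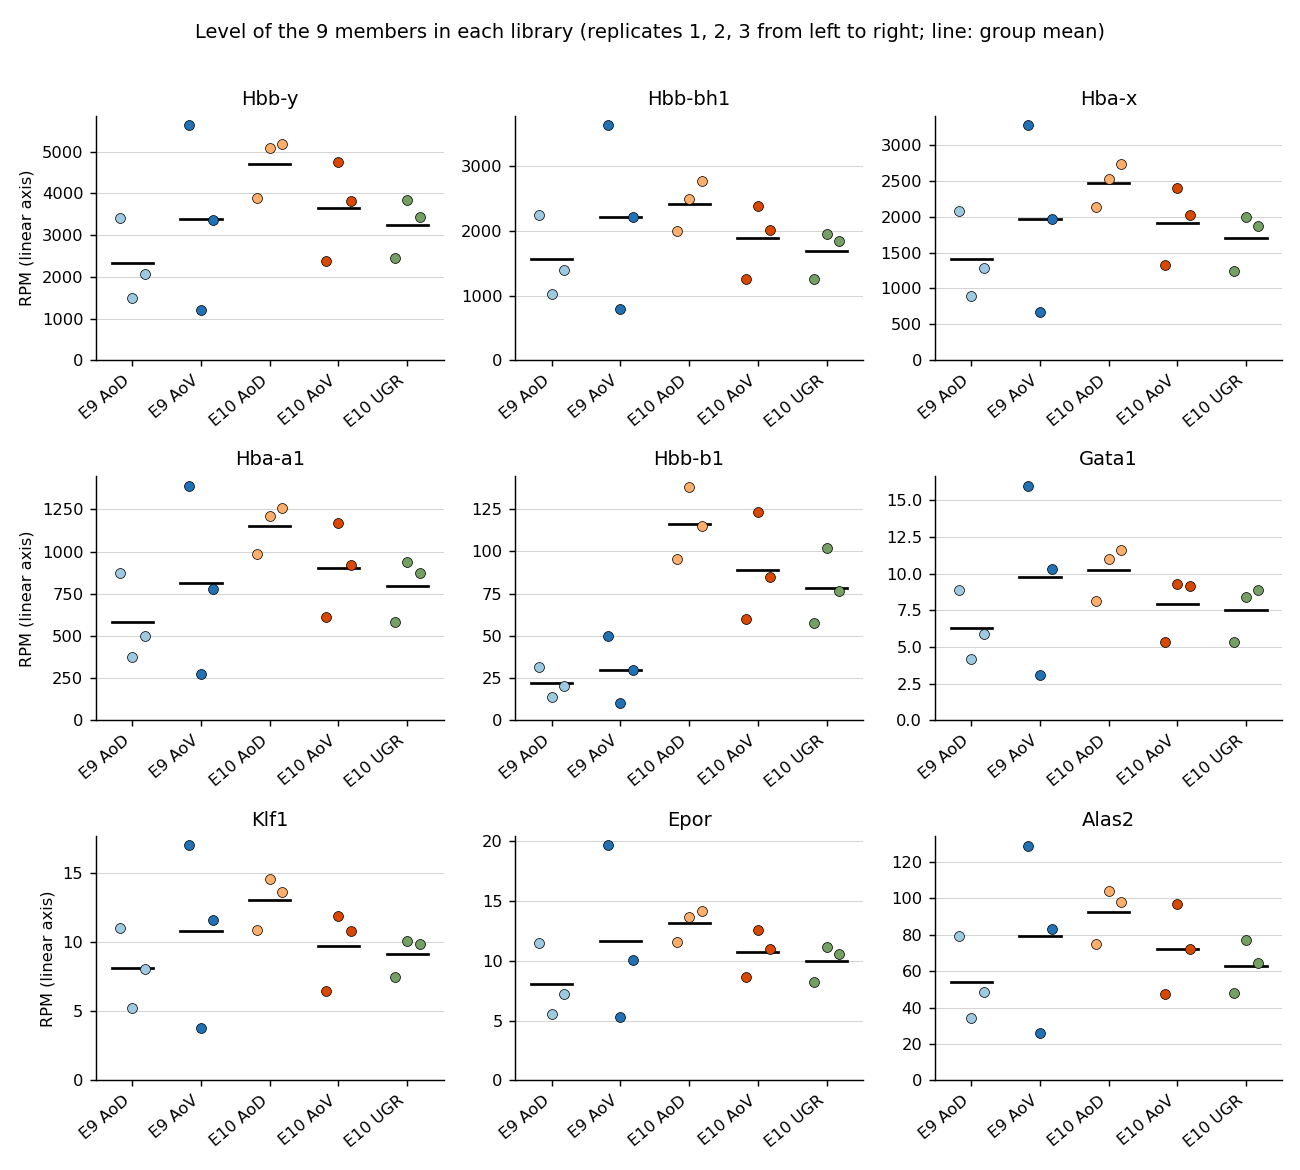
Level of each of the 9 genes in each of the 15 libraries, in RPM on linear axes from 0, by group. Points are libraries (replicates 1 to 3 from left to right) and lines are group means. The replicates of E9 AoV are the most spread, and Hbb-b1 is the gene whose E10.5 libraries (57.4 to 138 RPM) all lie above its E9.5 libraries (10.2 to 49.8 RPM). The ranges of the stages lay apart for 60.7% of all tested genes in the dorsal and for 55.0% in the ventral aorta, each with 3 libraries against 3. The share for all E10.5 against all E9.5 libraries was not counted.

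Per kilobase of exon, the order of the levels was the same in nearly every library. This order is of single rows and leaves out Hba-a2, which shares reads with Hba-a1 and had a median of 1201 RPM per kilobase. Mean levels per kilobase of Hba-a1, Hba-a2 and Hba-x were 718, 803 and 1511 in E9 AoD. In E10 AoD they were 1417, 1587 and 2630. The place of Hba-x above Hba-a1 thus does not put embryonic alpha RNA above all adult alpha RNA. The median level over the 15 libraries was 5204 RPM per kilobase for Hbb-y, 3257 for Hbb-bh1, 2122 for Hba-x, 1076 for Hba-a1, 84.9 for Hbb-b1, 31.2 for Alas2, 7.04 for Klf1, 6.01 for Epor and 3.65 for Gata1. Each gene of this order was above the next in 15 of 15 libraries, except that Klf1 was above Epor in 13 of 15, with a ratio of levels per kilobase between 0.863 and 1.37, so these neighbours did not differ beyond their spread. Together the 5 globins took between 0.295% of the reads assigned to genes in replicate 2 of E9 AoV and 1.40% in replicate 1 of the same group.

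The 9 genes varied together from library to library. Between the lowest and the highest library the level differed by 3.72-fold for Epor, the least variable, and by 13.5-fold for Hbb-b1. All 9 genes were lowest in replicate 2 of E9 AoV, and all but Hbb-b1 were highest in replicate 1 of E9 AoV. The order of the replicates was shared by the genes: replicate 1 was the highest and replicate 2 the lowest for 9 of 9 genes in both E9 AoD and E9 AoV, and replicate 1 was the lowest for 9 of 9 genes in all 3 groups of E10.5. The SD of log2 levels within groups was between 0.51 and 0.67 for the 9 genes, against a median of 0.12 over all tested genes, and between 98.6% and 99.8% of the tested genes had a smaller one. Of the genes of like level, between 92.3% (for Hbb-bh1) and 99.96% (for Alas2) had a smaller one. In bulk tissue, fewer red cells and less of this RNA per red cell cannot be told apart.

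The same movement was found in other red cell genes. Among the genes whose log2 profile over the 15 libraries was most like the mean profile of the 9 were Hba-a2 (Pearson r = 0.995), Ank1 (0.994), Trim10 (0.992), Slc4a1 (0.992), Ermap (0.989), Car2 (0.988) and Epb4.2 (0.987). These correlations are a description over 15 libraries that share stages, experiments and the RPM scale, and the Hba-a2 profile also shares divided reads with Hba-a1. After group means were subtracted, those most like the mean included Hba-a2, Ank1, Trim10, Kel, Epb4.2 and Ube2l6 (r between 0.991 and 0.998). Of the 9 genes themselves, 8 had an r between 0.974 and 0.997 with the mean profile over the 15 libraries. Each of the 9 is part of that mean, which raises its r, so these values are not comparable with those of the other genes. Hbb-b1 had 0.798, and 0.987 once group means were subtracted, so it followed the other genes within groups and left them between groups. The summed level of the 10 tested genes of a list of 13 other erythroid markers, among them Slc4a1 and Ermap, ranged from 137 to 561 RPM in E9 AoV, from 176 to 342 RPM in E9 AoD and from 263 to 545 RPM over the E10.5 groups.

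The comparison of stages asked how the genes differ before and after the AGM region gains the capacity to support stem cell maturation on its own. In the dorsal aorta all 9 genes were measured higher at E10.5, with log2 fold changes between 0.70 and 2.46 and a median of 0.84, against a median of -0.0019 over all tested genes. Calls required at least a 2-fold difference and, in limma on log2(RPM + 0.1), a Benjamini-Hochberg adjusted p below 0.05, adjusted over all tested genes. Of the 9 genes, 2 were called, where 12.6% of the tested genes were called in this comparison. At any fold, 3 of 9 had an unadjusted p below 0.05, where 57.8% of the tested genes had even an adjusted p below 0.05. Hbb-b1, an adult beta chain gene, rose from 22.0 ± 9.07 RPM in E9 AoD to 116 ± 21.3 RPM in E10 AoD (SD, n = 3 each), a log2 fold change of 2.46 ± 0.454 (SE, limma adjusted p = 0.000307). Hbb-y, the epsilon-y chain of primitive cells, rose from 2323 ± 982 to 4713 ± 723 RPM, by 1.09 ± 0.440 on the log2 scale (limma adjusted p = 0.0455). The Hbb-y call was lost when any library of these groups but replicate 1 of E9 AoD was omitted, with log2 fold changes between 0.82 and 1.41 over the 6 omissions, and under the other settings given in the closing section.

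The 7 other genes were not called in the dorsal aorta in this fit. Hba-a1 had a log2 fold change of 1.07 (limma adjusted p = 0.056), Hba-x of 0.88 (0.103) and Hbb-bh1, the beta-h1 chain, of 0.70 (0.18). Among the regulators, Epor had a log2 fold change of 0.75 (limma adjusted p = 0.0806), Alas2 of 0.84 (0.129), Klf1 of 0.73 (0.145) and Gata1 of 0.74 (0.178). The standard errors of these 7 were between 0.35 and 0.46. The near copy Hbb-b2, whose reads could not be fully told from those of Hbb-b1, had a log2 fold change of 1.11 (limma adjusted p = 0.0646) and was not called. Calls in the dorsal aorta depended on how the spread was estimated. Hba-a1 was called too when limma was fitted to only the libraries compared, where all 9 genes had an adjusted p between 0.000115 and 0.0438 and 52.8% of all tested genes were below 0.05. The same 3 genes were called with array weights. They were called as well with the replicate number as a block within each stage, a fit chosen after seeing the data, where the 9 adjusted p in limma were between 7.42e-08 and 0.00416 and 65.1% of all tested genes were below 0.05. This block takes spread shared by same-numbered libraries of a stage out of the error. The stages were compared between different pools, so its p-values are too small for a stage difference.

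In the ventral aorta the members other than Hbb-b1 lay on both sides of 0. Hbb-b1 rose from 29.9 ± 19.8 RPM at E9.5 to 89.1 ± 31.9 RPM at E10.5 (SD, n = 3 each), a log2 fold change of 1.78 ± 0.454 (SE, limma adjusted p = 0.00505). It was the 1 of 9 genes called, where 11% of the tested genes were called. At any fold, 1 of 9 had an unadjusted p below 0.05, where 46.0% of the tested genes had even an adjusted p below 0.05. The other 8 had log2 fold changes between -0.06 (Gata1, limma adjusted p = 0.932) and 0.38 (Hba-a1, 0.523), and the median of the 9 was 0.08, against -0.0016 over all tested genes. Hbb-b2 had 0.51 (limma adjusted p = 0.418). Hbb-bh1, at 2215 ± 1418 RPM before and 1883 ± 571 RPM after, had a log2 fold change of -0.03 (limma adjusted p = 0.965). When single libraries were left out, the log2 fold change of Hbb-b1 stayed between 1.15 and 2.28 in the ventral and between 2.17 and 2.77 in the dorsal aorta, and the gene was called each time, while each of the other 8 genes changed sign in the ventral aorta in at least 1 of these fits.

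**Figure D2:**
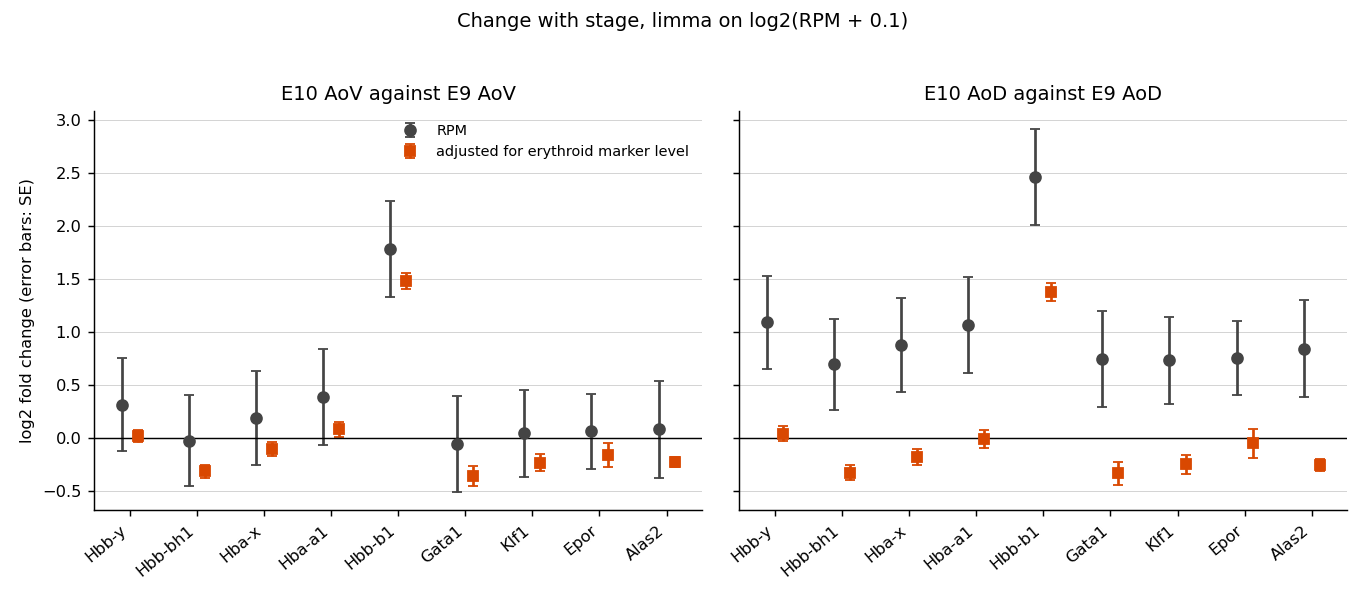
Log2 fold change from E9.5 to E10.5 of each gene in the dorsal and in the ventral aorta, with SE, from the fit on log2(RPM + 0.1) and from the fit that adds the level of the erythroid markers. Hbb-b1 lies above 1 in each fit, and the other genes move towards 0 or below it in the dorsal aorta when the marker level is added.

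Ratios of genes within a library were far less variable than their levels. The pooled SD of the log2 ratios within groups was between 0.042 and 0.176. In all, 8 ratios were tested for stage and for position over the 12 aorta libraries by an exact two-sided permutation test within strata, with 400 arrangements and a smallest possible p of 0.005, and p-values were adjusted over the 16 tests. The test treats the 12 libraries as independent. Same-numbered AoD and AoV libraries may share embryos, with deviations that correlated by 0.19 to 0.45 at E9.5 and by 0.04 to 0.21 at E10.5. If they do, the exact p-values for stage are too small. The ratio of Hbb-b1 to the sum of Hbb-y and Hbb-bh1 was 0.00564, 0.00553 and 0.00590 in E9 AoD and 0.00539, 0.00517 and 0.00536 in E9 AoV. In the E10.5 aorta it was 0.0163, 0.0182 and 0.0145 in E10 AoD and 0.0164, 0.0172 and 0.0146 in E10 AoV. The stages were clearly separated, with a 2.94-fold higher ratio at E10.5 (exact p = 0.005, adjusted 0.02), and the E10 UGR libraries, at 0.0144 to 0.0176, lay within the range of the E10.5 aorta apart from 1 library just under it.

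The embryonic beta-like chains also shifted against each other. The ratio of Hbb-y to Hbb-bh1 was 1.52, 1.46 and 1.47 in E9 AoD, 1.55, 1.51 and 1.51 in E9 AoV, 1.94, 2.04 and 1.87 in E10 AoD, 1.90, 2.0 and 1.90 in E10 AoV and 1.94, 1.97 and 1.86 in E10 UGR. All E10.5 libraries lay above all E9.5 libraries, and the difference in the aorta was 1.29-fold (exact p = 0.005, adjusted 0.02). As a share of the RPM of the 4 beta-like genes, Hbb-y took 59.0% in E9 AoD and 59.7% in E9 AoV and between 64.3% and 64.6% in the groups of E10.5. Hbb-bh1 took 39.8% and 39.2% at E9.5 and between 33.1% and 33.4% at E10.5. Hbb-b1 took 0.559% and 0.522% at E9.5 and between 1.55% and 1.59% at E10.5, so that the embryonic chains made up nearly all beta-like RNA at both stages.

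The adult alpha gene moved against the embryonic one in the same direction by less. The ratio of Hba-a1 to Hba-x was between 0.391 and 0.425 in the E9.5 libraries and between 0.457 and 0.488 in those of the E10.5 aorta, a 1.14-fold difference (exact p = 0.005, adjusted 0.02). The E10 UGR libraries were at 0.464, 0.472 and 0.466. Hba-x took 55.9% of the RPM of the alpha-like genes in both groups of E9.5 and between 52.6% and 52.7% at E10.5. The sum of the alpha-like members over that of the beta-like members had a geometric mean between 0.487 and 0.509 in the 5 groups, and its log2 difference between the stages was 0.011 (exact p = 0.695, adjusted 0.794). This sum leaves out Hba-a2, which took between 21.1% and 22.8% of the alpha-like RPM in the group means. The ratio is thus not that of all alpha-like to all beta-like RNA.

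Since 58.3% of the 50-base stretches of Hbb-b1 are shared with Hbb-b2, its ratio was also looked at beside that of its near copy. Hbb-b2 was at 34.9, 14.4 and 27.4 RPM in E9 AoD, 55.2, 10.6 and 36.6 RPM in E9 AoV, then 44.0, 59.9 and 52.6 RPM in E10 AoD, 27.0, 60.0 and 38.7 RPM in E10 AoV and 25.1, 47.2 and 36.1 RPM in E10 UGR. In RPM it was thus near Hbb-b1 at E9.5 and below it at E10.5. The geometric mean ratio of Hbb-b1 to Hbb-b2 was 0.867 in E9 AoD and 0.891 in E9 AoV, and 2.22, 2.15 and 2.18 in E10 AoD, E10 AoV and E10 UGR. The sum of both genes, which does not depend on how reads were divided between them, was 0.0122 and 0.0112 of the sum of Hbb-y and Hbb-bh1 in the dorsal and ventral aorta of E9.5 and 0.0236, 0.0235 and 0.0230 of it in the 3 groups of E10.5. The ratio of Hba-a2 to Hba-a1 stayed between 0.919 and 0.926 in the group means. The theta-like globin Hbq1 was low, with group means between 0.215 and 0.402 RPM. These ratios were not tested.

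**Figure D3:**
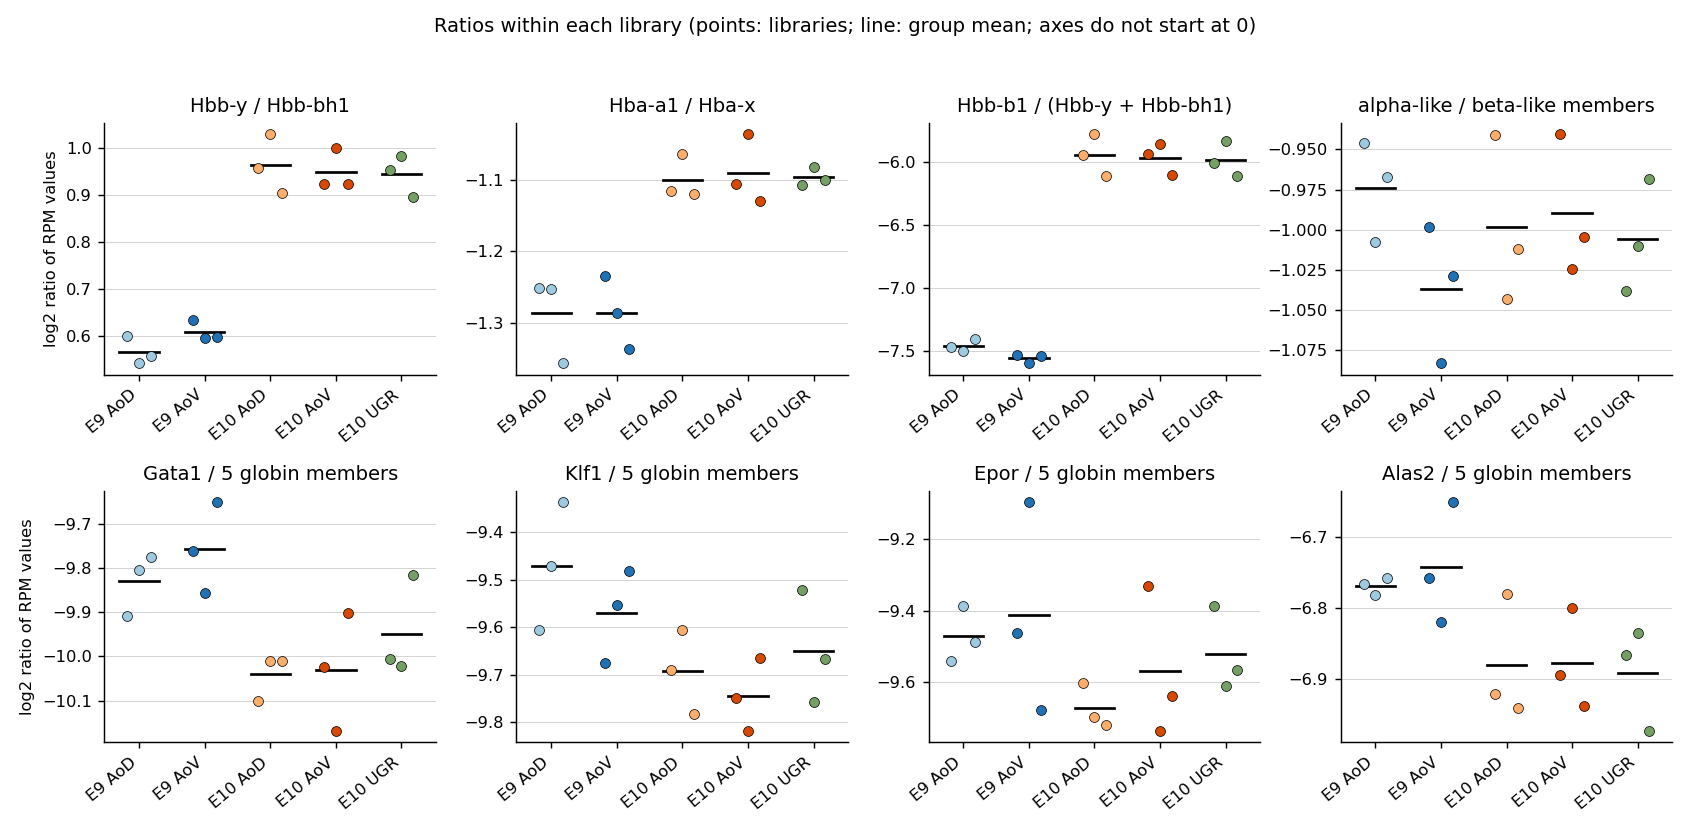
The 8 log2 ratios of RPM values within each library, by group, with points for libraries and lines for group means, on axes that do not start at 0. The E10.5 libraries lie above the E9.5 libraries for Hbb-y over Hbb-bh1, Hba-a1 over Hba-x and Hbb-b1 over the sum of Hbb-y and Hbb-bh1, while the 5 other ratios overlap between the stages.

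The regulators were set against the globins in the same way. The ratio of Gata1 to the sum of the 5 globins was 0.845-fold as high at E10.5 as at E9.5 (log2 difference -0.24, exact p = 0.005, adjusted 0.02), although the ranges of the stages overlapped. Klf1 was at 0.871-fold (exact p = 0.02, adjusted 0.064), Alas2 at 0.918-fold (exact p = 0.025, adjusted 0.0667) and Epor at 0.884-fold (exact p = 0.115, adjusted 0.263), none of which passed after adjustment. None of the 8 ratios passed for position, with adjusted p between 0.42 and 0.845 in the exact tests and ratios of AoV to AoD between 0.949 and 1.06.

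A fit that added the mean log2 level of the 10 other erythroid markers of each library gave stage differences adjusted for the marker level. This fit was chosen after the levels had been seen. The marker level was between 3.40 and 4.35 in E9 AoD, 3.05 and 5.06 in E9 AoV, 4.57 and 4.97 in E10 AoD and 4.0 and 4.87 in E10 AoV on the log2(RPM + 0.1) scale. The ranges of E9 AoD and E10 AoD do not overlap, so the dorsal values are extrapolated by the fit. Adjusted for the marker level, Hbb-b1 was higher at E10.5 by 1.38 in the dorsal aorta (limma adjusted p = 3.22e-08) and by 1.48 in the ventral aorta (3.77e-09), in log2 units. Hbb-b2 was at -0.05 and 0.19 (limma adjusted p = 0.704 and 0.0886). Hbb-bh1 fell by 0.33 in the dorsal (limma adjusted p = 0.00153) and by 0.32 in the ventral aorta (0.000788). Hbb-y was at 0.04 and 0.02 and its dorsal difference no longer passed (limma adjusted p = 0.645).

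In this fit the regulators lay below 0 in both parts of the aorta. Gata1 fell by 0.33 in the dorsal (limma adjusted p = 0.0181) and by 0.36 in the ventral aorta (0.00564), Klf1 fell by 0.25 (0.0285) and by 0.23 (0.0216), and Alas2 fell by 0.25 (0.00177) and by 0.23 (0.00168), each under 2-fold. Epor was at -0.05 and -0.17 (limma adjusted p = 0.756 and 0.253). Both comparisons thus had 5 of 9 genes below an adjusted p of 0.05, where 55.9% of all tested genes were below it in the dorsal and 49% in the ventral aorta, and of the 9 Hbb-b1 alone reached 2-fold.

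**Figure D4:**
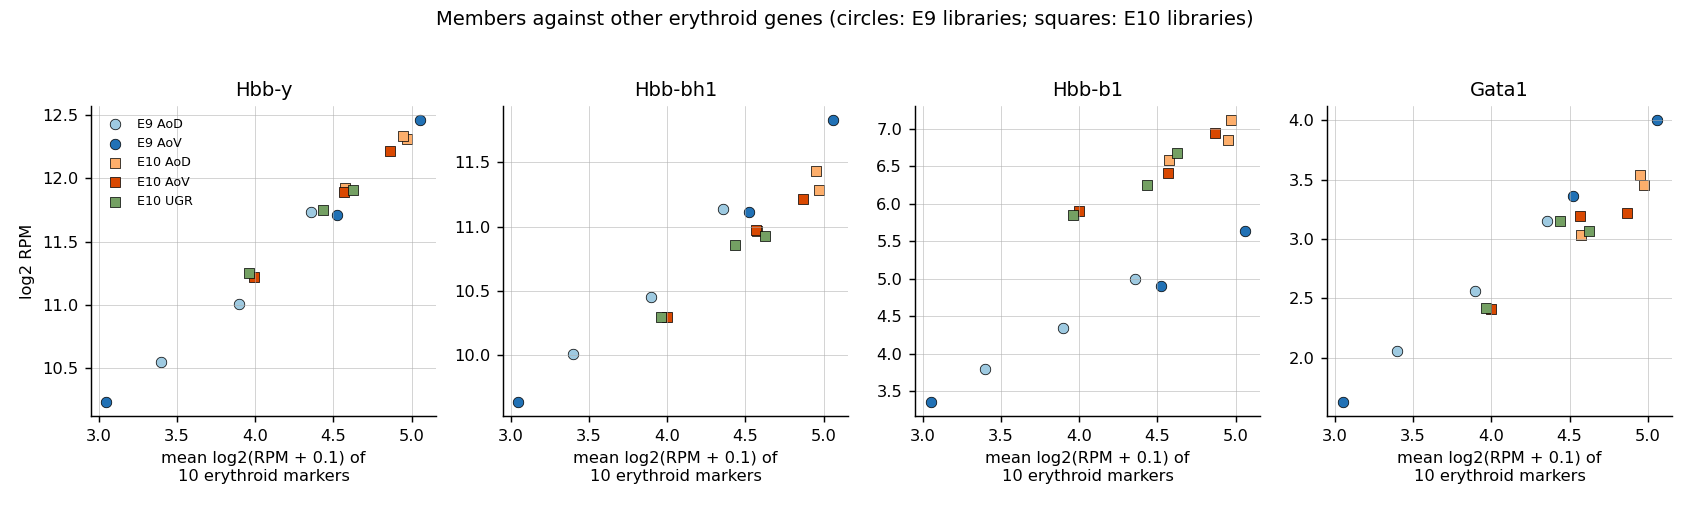
Log2 RPM of Hbb-y, Hbb-bh1, Hbb-b1 and Gata1 in each library against the mean log2(RPM + 0.1) of the 10 other erythroid markers, with circles for E9.5 and squares for E10.5 libraries. Each gene climbs with the marker level, and the Hbb-b1 level of every E10.5 library lies above that of every E9.5 library. The ranges of RPM of the stages lay apart for 60.7% of all tested genes in the dorsal and for 55.0% in the ventral aorta, each with 3 libraries against 3. The share for all E10.5 against all E9.5 libraries was not counted. The marker levels of E9 AoD (3.40 to 4.35) and E10 AoD (4.57 to 4.97) do not overlap.

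The comparison of positions asked whether red cell genes differ along the dorso-ventral axis. At E10.5 the 9 genes were measured lower in the ventral than in the dorsal aorta, with log2 fold changes between -0.46 and -0.30 and a median of -0.40, against 0.017 over all tested genes. None was called by limma (adjusted p between 0.432 and 0.551), and 0 of 9 had an unadjusted p below 0.05. Of all tested genes, 10.1% were called and 35.5% had an adjusted p below 0.05 at any fold. The median of the 9 genes was -0.14 without replicate 1 and -0.61 without replicate 2 of E10 AoV. At E9.5 they were measured higher in the ventral aorta, by 0.23 to 0.40 with a median of 0.33 (0.018 over all tested genes). Again none was called (limma adjusted p between 0.39 and 0.682), with 0 of 9 at an unadjusted p below 0.05. Of the tested genes, 11.8% were called and 47.7% had an adjusted p below 0.05 at any fold. This last median depended on 2 pools: it was 0.93 without replicate 2 of E9 AoV, where Gata1 and Alas2 were called beside 11.5% of the tested genes, and -0.16 without replicate 1. With the block within stage the adjusted p in limma were between 0.0414 and 0.107 at E10.5, with 2 of 9 below 0.05 beside 46% of the tested genes. At E9.5 they were between 0.0169 and 0.258, with 1 of 9 below 0.05 beside 56.8%, and each difference stayed under 2-fold.

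The aorta was also set against the urogenital ridges. The 9 genes had a median log2 fold change of 0.14 in E10 AoV (0.05 to 0.16, limma adjusted p between 0.834 and 0.945) and of 0.55 in E10 AoD (0.40 to 0.59, adjusted p between 0.346 and 0.471), against -0.047 and -0.055 over all tested genes. None was called and 0 had an unadjusted p below 0.05 in either comparison, where 7.57% and 11.3% of the tested genes were called. At any fold, 29.1% and 39.2% of the tested genes had an adjusted p below 0.05. For E10 AoV the direction rested on single pools: all 9 values were below 0 without replicate 2 of E10 AoV (-0.12 to -0.02) and without replicate 1 of E10 UGR (-0.17 to -0.03). The median for E10 AoD was 0.35 without replicate 1 of E10 UGR. With the block within stage 8 of 9 genes had an adjusted p below 0.05 in E10 AoD against E10 UGR (0.00925 to 0.0625 in limma), each under 2-fold, where 48.9% of the tested genes were below it. E10 AoV, E10 AoD and E10 UGR each enter 2 of these comparisons, so the values are not independent.

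The stage difference was smaller in the ventral than in the dorsal aorta for all 9 genes by the estimates, with an interaction (the log2 fold change in AoV minus that in AoD) between -0.80 and -0.68. None was called (limma adjusted p between 0.346 and 0.488), and 0 of 9 had an unadjusted p below 0.05. Of the tested genes, 11% were called and 28.1% had an adjusted p below 0.05 at any fold. Without replicate 2 of E9 AoV, 8 of the 9 genes were called, all but Hbb-b1 (-1.47 to -1.16, limma adjusted p between 0.0228 and 0.0558), where 10.8% of the tested genes were called. Without replicate 1 of E9 AoV the values were between -0.30 and -0.15 (limma adjusted p between 0.728 and 0.874) and none was called. With the replicate number as a block within each stage, a fit chosen after seeing the data, all 9 genes had an adjusted p below 0.05 in limma (0.00765 to 0.0446), each under 2-fold, where 38.5% of all tested genes were below 0.05.

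For the regulators, the sequence before the gene was read from RefSeq (GRCm38.p6), 250 bases up to the start, where 7 of the 9 genes had an entry. The promoters of Klf1, Epor and Alas2 are shown because these genes carry short spellings of both kinds of element that GATA and KLF factors are known to bind. They lie at chr8:84901732-84901981 on the plus strand, chr9:21963577-21963826 on the minus strand and chrX:150547167-150547416 on the plus strand. Capitals mark 5 sets of letters on either strand, which do not overlap each other here. The GATA spellings searched were AGATAA and TGATAA. The others of this kind were AGATAG and TGATAG. The spelling marked for KLF factors was CACCC.
Klf1: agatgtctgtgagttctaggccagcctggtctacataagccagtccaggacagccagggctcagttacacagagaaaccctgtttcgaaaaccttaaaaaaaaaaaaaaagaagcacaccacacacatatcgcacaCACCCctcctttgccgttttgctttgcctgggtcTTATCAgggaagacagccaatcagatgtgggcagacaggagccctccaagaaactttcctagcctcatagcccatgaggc
Epor: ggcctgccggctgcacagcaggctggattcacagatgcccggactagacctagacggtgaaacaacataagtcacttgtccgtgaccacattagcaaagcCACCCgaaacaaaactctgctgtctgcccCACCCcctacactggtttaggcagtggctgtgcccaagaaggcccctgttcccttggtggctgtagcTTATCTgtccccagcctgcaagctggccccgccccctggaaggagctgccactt
Alas2: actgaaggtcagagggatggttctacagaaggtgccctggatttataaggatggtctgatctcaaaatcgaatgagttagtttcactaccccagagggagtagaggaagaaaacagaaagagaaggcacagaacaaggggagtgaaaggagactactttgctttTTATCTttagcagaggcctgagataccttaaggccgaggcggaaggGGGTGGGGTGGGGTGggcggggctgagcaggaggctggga
At least 1 of the 4 GATA spellings was found in 6 of the 7 promoters (all but Gata1), and in 26.5% of the 32851 promoters of the table. CACCC was found in 7 of 7 and in 52.0% of all, and CCAAT, searched on both strands too, in 3 of 7 (Hbb-y, Hba-a1 and Klf1) and in 33.8% of all. A longer spelling for KLF factors, CCNCNCCC with N for any base, was searched as well and is not marked. It was found in 4 of 7 (Hba-x, Gata1, Epor and Alas2, but not Klf1) and in 45.9% of all. A match of so few letters describes the sequence and is no measure of binding.

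Genes that work with these members were counted from lists of red cell pathways, with calls as before. Between the stages, 12.6% of all tested genes were called in the dorsal and 11% in the ventral aorta. At any fold, 57.8% and 46.0% of them had an adjusted p below 0.05. In heme synthesis (9 tested genes, Alas2 among them) none was called in either part of the aorta by limma, and 2 had an unadjusted p below 0.05 in the dorsal and 0 in the ventral aorta. The median log2 fold change was 0.23 in the dorsal and 0.06 in the ventral aorta. Fech, which inserts iron to form heme, was singled out after its values were seen. It was at 69.3 against 39.6 RPM in E10 AoD and E9 AoD, a log2 fold change of 0.82 (limma adjusted p = 0.00453) that stayed under 2-fold. Of 16 red cell membrane genes, 3 rose and 0 fell in the dorsal aorta (median 0.93): Rhd, of the Rh complex, by 1.75 (limma adjusted p = 0.00172), Icam4, a red cell adhesion molecule, by 1.53 (0.00241), and Aqp1, a water channel also made by endothelium, by 2.39 (1.73e-08). In the ventral aorta none of the 16 was called by limma, 3 had an unadjusted p below 0.05 and the median was 0.23. The other erythroid markers themselves had medians of 0.93 and 0.22, with 1 of 10 called in the dorsal aorta, Hemgn at 1.44 (limma adjusted p = 0.00831), and none in the ventral aorta, where 0 had an unadjusted p below 0.05.

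In the lists of iron transport and of erythropoietin signalling, 2 of 13 genes each were called in either part of the aorta, where 12.6% of all tested genes were called in the dorsal and 11% in the ventral aorta. Of 13 iron and heme transport genes, Slc40a1, the iron exporter ferroportin, and Trf, the iron carrier transferrin, rose in the dorsal aorta (by 1.54 and 1.01) and fell in the ventral aorta (by 1.07 and 2.57). Both were highest in E9 AoV, at 27.3 and 67.7 RPM, against 4.35 and 7.66 RPM in E9 AoD. Tfrc, the transferrin receptor, chosen in the same way, fell by 0.65 and 0.75 (limma adjusted p = 8.41e-05 and 3.69e-05), under 2-fold. Of 13 genes of erythropoietin signalling, 1 rose and 1 fell in both parts of the aorta. Epo, the hormone that EPOR binds, fell from 1.93 to 0.759 RPM in the dorsal aorta (log2 fold change -1.24, limma adjusted p = 3.51e-05) and from 2.24 to 0.259 RPM in the ventral aorta (-2.69, 2.43e-08). Socs3, an inhibitor of cytokine receptor signalling, rose by 1.94 and 1.30.

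Among 20 partners of GATA1 and KLF1 and other erythroid transcription factors, 3 rose and 0 fell in the dorsal and 2 rose and 0 fell in the ventral aorta, with medians of 0.65 and 0.21, where 12.6% and 11% of all tested genes were called. Bcl11a, a repressor of embryonic globin genes, rose from 4.31 to 49.5 RPM in the dorsal aorta (log2 fold change 3.48, limma adjusted p = 2.27e-10) and from 12.7 to 34.4 RPM in the ventral aorta (1.43, 9.87e-07). It is also made by other cells than red cells, and its interaction of -2.05 passed the test (limma adjusted p = 2.7e-06). Klf2, which acts with KLF1 on embryonic globin genes and is strong in endothelium, rose by 3.26 (limma adjusted p = 1.2e-05) and 2.23 (0.000584). Gata2, the GATA factor of progenitors and endothelium, rose in the dorsal aorta by 1.96 (limma adjusted p = 2.61e-08) and was at 64.5 RPM in E10 UGR against 21.5 and 20.9 RPM in E10 AoD and E10 AoV (log2 fold changes of the aorta against the ridges -1.59 and -1.62, limma adjusted p = 2.74e-07 and 4.61e-07). Zfpm1, which encodes the GATA1 cofactor FOG1, was higher in the ventral than in the dorsal aorta at E10.5 (110 against 39.7 RPM, 1.47, limma adjusted p = 6.08e-07) and at E9.5 (70.8 against 33.9 RPM, 1.07, 1.25e-05).

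**Figure D5:**
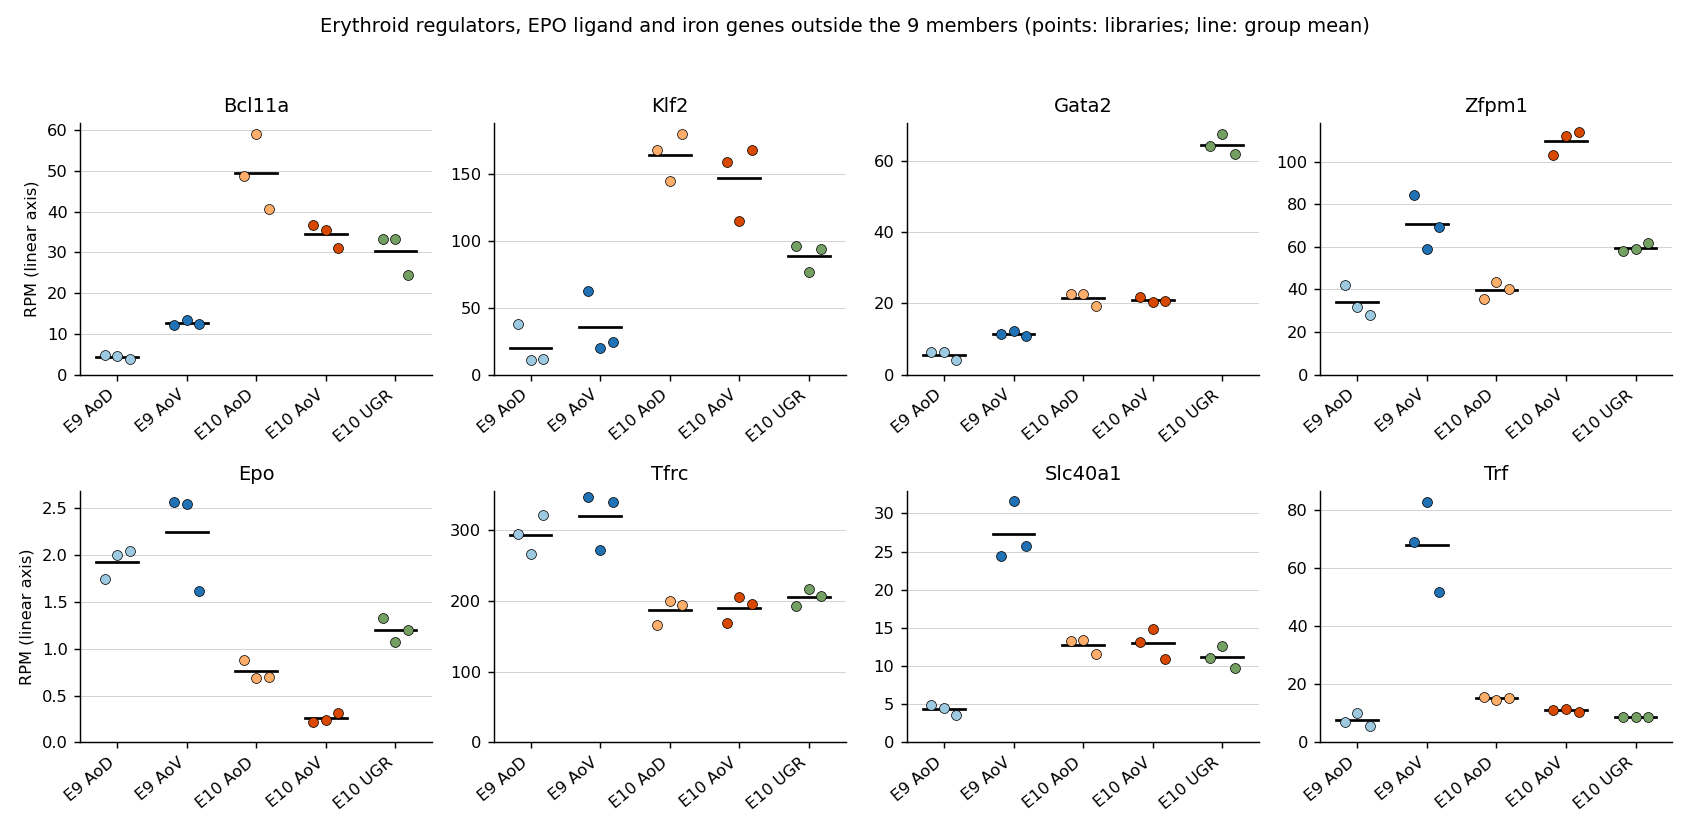
Levels of genes of the erythroid network in each library, in RPM on linear axes from 0, by group, with points for libraries and lines for means. Bcl11a and Klf2 are higher at E10.5 than at E9.5 in both parts of the aorta, and Epo is lowest in E10 AoV (mean 0.259 RPM).

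Markers of other cells also differed between the groups. Between the stages, 12.6% of all tested genes were called in the dorsal and 11% in the ventral aorta. In the ventral aorta 46.0% of them had an adjusted p below 0.05 at any fold. The summed level of 10 hepatoblast markers was between 516 and 828 RPM in E9 AoV, between 2.33 and 29.9 RPM in E9 AoD and between 0.75 and 4.68 RPM in the E10.5 groups, and 10 of 10 were called lower at E10.5 in the ventral aorta. Trf, which the liver makes, was highest in the same group. The summed level of 10 macrophage markers was between 5.66 and 13.9 RPM at E9.5 and between 45.3 and 85.9 RPM at E10.5, and 9 of 10 rose in both parts of the aorta. Of the megakaryocyte markers, which GATA1 also switches on, 5 of 9 rose in the dorsal and 1 of 9 in the ventral aorta. Of 10 markers of definitive progenitors, 5 rose and 1 fell in the dorsal and 3 rose in the ventral aorta, and of 10 endothelial markers 4 rose in the dorsal aorta and none was called in the ventral, where 5 had an unadjusted p below 0.05 in limma. The part of these cells in the values of the 9 genes was not tested.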

How the data were processed

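RNA of 15 libraries in 5 groups of 3 was measured by sequencing of single-end reads of 50 bases. TopHat and Bowtie (0.12.3 in the submitters' processing notes) were used by the authors for alignment to the NCBI37/mm9 genome and GeneProf for counting over Ensembl genes. The authors deposited RPM values, reads per megaread assigned to genes, rounded to 3 significant digits. Their 12 columns of fold changes and adjusted p-values between groups (DESeq) were not used. The fit used limma 3.58.1 (R 4.3.3) on log2(RPM + 0.1) of all genes that reached 0.5 RPM in any library, all 15 libraries, a mean for each group and an intensity trend. A log2 fold change is on that scale and understates changes of low genes. Ratios were tested by exact permutation in Python 3.11.15, and the scripts were tested on simulated data. A count of 3 reads is worth between 0.0618 and 0.0888 RPM per library and covers counting error only.

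Named were all 9 genes in every comparison, the other rows named Hba, Hbb or Hbq, from each gene list at most the 3 called genes with the largest log2 fold change per comparison, and the 8 genes most like the mean profile, some of which are not reported here. The members and the lists were chosen with earlier results of these data known. Alternatives were other pseudocounts, no filter, quantile normalization, RPM without globins, array weights, only the compared libraries, no fold threshold, a replicate block and leaving out each library. Added after seeing the data were a block within each stage and the erythroid marker level as a covariate. Deviations of same-numbered libraries correlated by 0.19 to 0.45 between E9 AoD and E9 AoV, so the numbers may pair the libraries there, which no label states. Between the E10.5 groups the correlations were 0.04 to 0.34, not all above 0.1. Across the stages they were between -0.14 and 0.22, with those of E9 AoV and E10 AoD at 0.065 to 0.22.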

Additional observations from a re-analysis of the deposited data

How the results depend on the processing

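The calls of Hbb-b1 in both stage comparisons held under every alternative, the covariate and each left-out library included. The 2 genes called in E10 AoD against E9 AoD became 1 without the filter (Hbb-y adjusted p = 0.102 in limma), with quantile normalization (0.0857), with the replicate block (0.0517) and with the covariate, and between 1 and 5 when single libraries were left out, 5 without replicate 1 of E9 AoD. The replicate block left the other counts of called genes unchanged and the log2 fold changes of Hbb-b1 at 1.78 and 2.46. With the block within stage, with array weights and with only the libraries compared, 3 genes were called there, Hbb-y, Hba-a1 and Hbb-b1. The block within stage leaves spread shared by same-numbered libraries out of the error, so its p-values for stage are too small. The blocked exact tests of ratios cannot go below p = 0.03125 before the adjustment over the 16 tests. With that block, Hbb-y over Hbb-bh1 (log2 0.37) and Hba-a1 over Hba-x (0.19) no longer passed after adjustment. Neither did Hbb-b1 over both embryonic beta-like genes (1.56) nor Gata1 over globins (-0.24).

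In E10 AoV against E9 AoV, signs turned with array weights for Hba-x (-0.058), Klf1 (-0.27) and Alas2 (-0.22), and with the covariate for Hba-x (-0.11), Klf1 (-0.23), Epor (-0.17) and Alas2 (-0.23). Leaving out single libraries gave -0.31 to 0.81 for Hbb-y, -0.64 to 0.45 for Hbb-bh1, -0.45 to 0.69 for Hba-x, -0.26 to 0.91 for Hba-a1, -0.73 to 0.44 for Gata1, -0.57 to 0.49 for Klf1, -0.41 to 0.53 for Epor and -0.58 to 0.57 for Alas2. In E10 AoD against E9 AoD the covariate turned Hbb-bh1 (-0.33), Hba-x (-0.18), Hba-a1 (-0.011), Gata1 (-0.33), Klf1 (-0.25), Epor (-0.053) and Alas2 (-0.25). Between 0 and 2 genes were called in E9 AoV against E9 AoD and between 0 and 8 in the interaction when single libraries were left out, the highest counts without replicate 2 of E9 AoV.

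Among the ratios, left-out libraries gave stage differences of -0.23 to -0.16 for Klf1 and -0.15 to -0.10 for Alas2 over globins and of -0.0035 to 0.022 for alpha-like over beta-like, and position differences of -0.00057 to 0.031 for Hbb-y over Hbb-bh1, -0.013 to 0.018 for Hba-a1 over Hba-x and -0.0087 to 0.039 for Alas2 over globins. A pseudocount of 1 RPM brought Alas2 over globins for stage past the threshold (-0.13). Over all tested genes, a pseudocount of 1 RPM lowered the calls from 2046 to 1104 in E10 AoV against E9 AoV and from 2337 to 1281 in E10 AoD against E9 AoD, and dropping the fold threshold raised them to 8537 and 10730. Except where a value or a limit of the test is given, the cause was not tested.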
